A study of Mus musculus with 6 samples.

Results

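The 10 genes described here encode the heat shock proteins Hspa1a, Hspa1b, Hspa8, Hsp90aa1, Hsp90ab1, Hsph1, Hspd1, Hspe1 and Dnajb1 and the transcription factor Hsf1. They were chosen by gene symbol, as the major inducible and constitutive chaperones and the factor that controls them, and are 10 of the 48967 genes with counts listed for these embryos. The series holds 6 RNA-seq libraries from mouse embryos at the 2-cell stage, with 3 embryos pooled for each library and 3 libraries for each of the groups, control and delipidated. All embryos were wt, came from the strain labelled F1 (C57Bl/10 X CBA/H), and were cultured in fatty acid-free KSOM from 0.5 to 2.0 dpc, with collection labelled as day 2. For delipidation, zygotes were exposed to cytochalasin B in M2 medium, centrifuged to move the lipid droplets aside, and the droplets were aspirated through an opening in the zona pellucida. Control embryos are labelled as cultured in vitro from control zygotes, and whether these zygotes also went through cytochalasin B and centrifugation is not given in the sources used here. Zygotes of several females were mixed before they were allocated, so the libraries of a group are pools from the same collection and the p-values measure only the spread between such pools.

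Heat shock proteins are chaperones that hold or refold other proteins. Hsf1 is kept inactive by chaperones, and when misfolded proteins occupy these it forms trimers, binds heat shock elements in promoters and raises transcription of chaperone genes. In the mouse embryo Hspa1a and Hspa1b are among the first genes transcribed after fertilization, without a heat shock, whereas Hsf1 and most other members are also stored as maternal RNA in the oocyte. Because delipidation combines a drug, centrifugation, and micromanipulation, the comparison asks whether the RNA of these stress genes differed in the cleaved embryo.

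The deposited values were raw counts per exonic part, a piece of a gene's exons, and were added up for each gene. The counts in genes came to 12164963, 16165958 and 12980787 in control libraries and 20059460, 16332103 and 14683741 in delipidated libraries. Genes with a count numbered 22855, 22437 and 20582 in control and 17091, 19408 and 20158 in delipidated libraries. Each delipidated library thus held fewer such genes than any control library. Delipidated replicate 1 had the most counts and the fewest genes, and the cause was not tested. Levels are given as CPM, the counts of a gene relative to all counts of tested genes in its library after TMM normalization. A read pair is counted in every part it touches, so levels of different genes are compared as CPM per kb of summed exonic parts. Genes of many parts are raised by this counting against genes of few. Only the marker lists are ordered by CPM, which is not scaled for length. Values given as counts are raw and not scaled for depth.

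All 10 members passed edgeR's filter on low counts, and none was called between the groups. A gene was called at a Benjamini-Hochberg adjusted p under 0.05 and a log2 fold change beyond 1 in edgeR's quasi-likelihood test. Over all 16020 genes tested, 0 (0%) were called higher and 0 (0%) lower in delipidated embryos, and 463 genes (2.89%) had an unadjusted p under 0.05. None of the 10 members had an unadjusted p under 0.05 with edgeR, DESeq2 or limma-voom, and DESeq2 without a filter and limma-voom called 0 members. Over all genes, limma-voom called 0 and had 619 genes at an unadjusted p under 0.05, whereas DESeq2 without a filter called 9 higher and 40 lower and had 1341 such genes. The CPM of both groups overlapped for 10 of the 10 members, while the groups did not overlap for 1420 of all genes tested (8.86%). The log2 fold change of delipidated against control was above 0 for 4 members and below 0 for 6, with a median of -0.08, against 8004 above and 8016 below and a median of -0.00073 over all genes tested. The 95% interval of the fold change lay within 2-fold in both directions for 6 members, namely Hspa8, Hsp90aa1, Hsp90ab1, Hsph1, Hspd1 and Hsf1, and for 24.9% of all genes tested. In such bulk libraries fewer cells of a type and less RNA per cell cannot be told apart.

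In 2-cell embryos the members spanned a wide range of levels. In order of mean CPM per kb over the 6 libraries they were Hsp90ab1 at 506, Hsp90aa1 at 302, Hspa8 at 116, Hsph1 at 88.5, Hsf1 at 73.2, Hspd1 at 39.6, Hspe1 at 20.1, Dnajb1 at 5.60, Hspa1b at 4.89 and Hspa1a at 3.96. Between neighbours in this order, the ranges over libraries did not overlap for Hsp90ab1 and Hsp90aa1, for Hsp90aa1 and Hspa8, for Hsf1 and Hspd1, and for Hspe1 and Dnajb1. The ranges overlapped for Hspa8 and Hsph1, Hsph1 and Hsf1, Hspd1 and Hspe1, Dnajb1 and Hspa1b, and Hspa1b and Hspa1a, and among these pairs only Hspd1 was above its neighbour in 6 of 6 libraries. Among all genes tested, whose median was 3.47 CPM per kb, Hsp90ab1 ranked 54 and Hsp90aa1 ranked 85 by this measure, and the lowest member, Hspa1a, stood at percentile 52.8. With 200 bases added to the length of each part, to offset that a pair is counted in several parts, Hsph1 (41.6 CPM per kb) came before Hspa8 (38.8) and Hspa1b (4.56) before Dnajb1 (4.48), and the other members kept their places, with Hsp90ab1 at 172.6 in place of 506. By the longest part alone, which for Hspa8, Hsph1 and Hspe1 is a part of non-coding transcripts, Hspe1 came last at 0.219 CPM per kb and Hsph1 before it at 1.10, so the ranks and percentiles hold only for the summed parts.

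**Figure D1:**
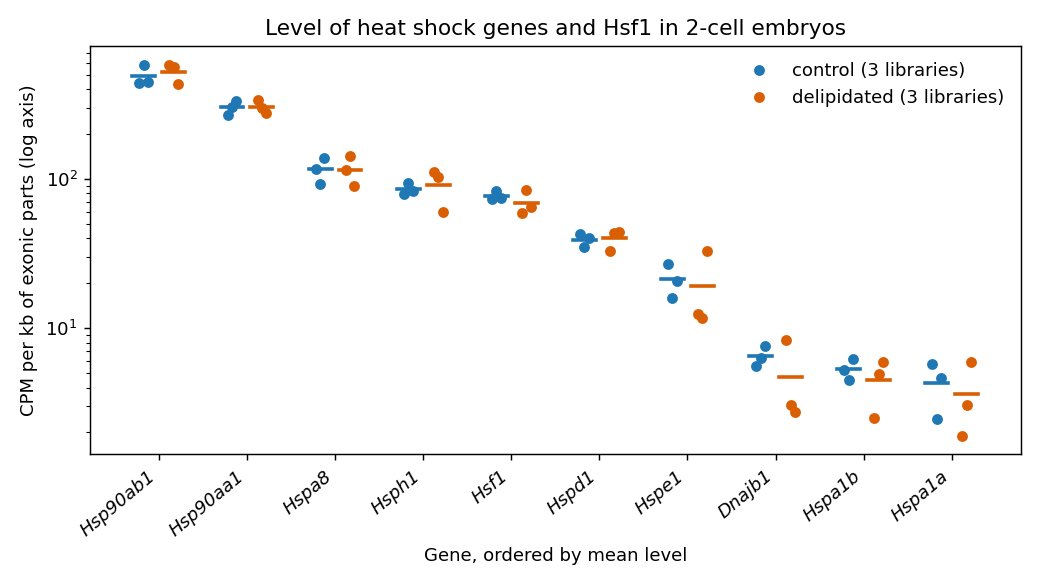
Level of each member in CPM per kb of summed exonic parts, on a log axis, with points for the 3 control and the 3 delipidated libraries and a bar at each group's mean. The members run from Hsp90ab1 at a mean of 506 CPM per kb to Hspa1a at 3.96, and the points of both groups overlap for every one of the 10 members.

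Hsf1 (ENSMUSG00000022556), the factor that activates the heat shock genes, spans 76477445 to 76500972 on chromosome 15 (forward strand, GRCm38) and is divided into 12 exonic parts. Its level was 148, 168 and 149.5 CPM in control libraries and 119.7, 169 and 131 CPM in delipidated libraries. The highest and the lowest value were both in delipidated libraries, so the groups overlapped, with means of 155 ± 11.1 CPM (SD, n = 3) in control and 140.1 ± 26.0 CPM (SD, n = 3) in delipidated embryos. EdgeR estimated a log2 fold change of -0.15 (SE 0.22), with a 95% interval from -0.63 to 0.33, at an adjusted p of 1.00. All 12 parts held counts in each of the 6 libraries, and 100% of them include coding sequence. Per kb, Hsf1 stood at percentile 95.8 of the genes tested, below Hsp90ab1, Hsp90aa1, Hspa8 and Hsph1 and above Hspd1, Hspe1, Dnajb1, Hspa1b and Hspa1a.

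Hspa1a (ENSMUSG00000091971) and Hspa1b (ENSMUSG00000090877) encode the same stress-inducible cytosolic HSP70 and lie side by side on the reverse strand of chromosome 17, from 34969190 to 34972156 and from 34956436 to 34959238. Each has a single exonic part, which holds its coding sequence and untranslated regions. Hspa1a had 17.1, 7.32 and 13.8 CPM in control libraries and 5.63, 9.09 and 17.6 CPM in delipidated libraries. Hspa1b had 14.7, 12.5 and 17.4 CPM in control libraries and 7.06, 13.9 and 16.7 CPM in delipidated libraries. Both genes were lowest in delipidated replicate 1, and for both the other delipidated values fell within the control range or, for Hspa1a in delipidated replicate 3, just above it. Together they had 31.8, 19.8 and 31.2 CPM in control and 12.7, 23.0 and 34.2 CPM in delipidated libraries, from 257 to 485 raw counts a library. The log2 fold change was -0.24 (standard error 0.56, 95% interval from -1.48 to 0.99) for Hspa1a and -0.25 (standard error 0.47, 95% interval from -1.29 to 0.79) for Hspa1b, both at an adjusted p of 1.00 with edgeR. These intervals span changes from 0.359-fold to 1.99-fold for Hspa1a and from 0.41-fold to 1.73-fold for Hspa1b, so a 2-fold lower level was within what these libraries allow. Without delipidated replicate 1 the log2 fold change was 0.07 for Hspa1a and 0.04 for Hspa1b, and Hspa1a also had 0.05 without control replicate 1, so the sign of both changed with a library left out.

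The counts of both copies are uncertain. Of the 150-base windows of the Hspa1a transcript, the length of a read before trimming, 46.0% are also found in other genes, 38.1% in Hspa1b, and 40.5% of those of Hspa1b are found in Hspa1a, and only unique reads were counted. Hspa1a also overlaps Gm20481, a gene on the opposite strand from 34969912 to 34972136, which had 90, 78 and 100 counts in control and 67, 113 and 160 in delipidated libraries. The sources used here do not state whether strand was used in the counting, so reads of these overlapping genes may have been mixed. Hspa1l, the testis-enriched neighbour of this pair on the forward strand, had 18, 21 and 18 counts in control and 0, 0 and 21 in delipidated libraries.

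The promoters of the inducible pair are shown because the genes share their regulation and their 250 bases upstream are nearly identical. They were taken from RefSeq on GRCm38.p6, which held a promoter for 6 of the 10 members; Hspa8, Hsp90aa1, Hsp90ab1 and Hsf1 had none in that table. Capitals mark the heat shock element, searched on both strands as 2 units in either order, GAANNTTC or TTCNNGAA, which are contained in the longer elements of 3 and 4 units. Both sequences are from the reverse strand, written 5′ to 3′ up to the base before the transcription start, at chr17:34972157-34972406 for Hspa1a and chr17:34959239-34959488 for Hspa1b.
Hspa1a: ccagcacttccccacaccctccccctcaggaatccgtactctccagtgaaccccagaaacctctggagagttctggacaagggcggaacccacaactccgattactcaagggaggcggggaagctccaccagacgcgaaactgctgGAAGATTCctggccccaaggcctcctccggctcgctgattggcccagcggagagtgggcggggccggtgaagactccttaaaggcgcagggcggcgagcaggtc
Hspa1b: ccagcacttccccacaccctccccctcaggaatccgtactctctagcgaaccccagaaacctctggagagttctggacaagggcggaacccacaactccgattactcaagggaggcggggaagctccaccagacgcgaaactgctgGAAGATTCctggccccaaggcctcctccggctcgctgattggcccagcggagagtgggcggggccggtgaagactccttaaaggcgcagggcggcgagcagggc
Counted from 1 at the 5′ end, Hspa1b differs from Hspa1a by C44T, T47C and T249G. Each copy holds 1 element of 2 units, starting at -104 from the transcription start, and no element of 3 units. An element of 2 units was found in 15.1% of all 32851 promoters of 300 bases, so a match of this length is common.

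The genes most like the inducible pair across the 6 libraries were named by the root mean square difference of log2(CPM + 1), centred on each gene's mean, from the sum of Hspa1a and Hspa1b. Among 8125 genes with a mean of at least 10 CPM, the closest included C87436 at 0.082, Pan2 at 0.091, Rtn3 at 0.097 and Timm21 at 0.104, against a median of 0.582. C87436 had 77.4, 51.2 and 74.3 CPM in control and 31.4, 49.1 and 85.3 CPM in delipidated libraries, lowest in delipidated replicate 1 and highest in delipidated replicate 3, as the pair was. The closest of the other members was Hspe1 at 0.314, which ranked 561, followed by Hspd1 at 0.347, which ranked 858. Dnajb1, a partner of these HSP70 proteins, was the farthest member at 0.901 and ranked 7225.

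Hspa8 (ENSMUSG00000015656) encodes the constitutive cytosolic HSP70, which folds new proteins and uncoats clathrin vesicles. It lies on the forward strand of chromosome 9 from 40800984 to 40810087 and is listed only under an identifier joined with the small nucleolar RNA genes in its introns. Its level was 473, 371 and 561 CPM in control libraries and 462, 576 and 360.3 CPM in delipidated libraries. Both groups spread over the same range, with means of 468 ± 95.3 CPM (SD, n = 3) in control and 466 ± 108 CPM (SD, n = 3) in delipidated embryos. Its log2 fold change was -0.01 (SE 0.22), with a 95% interval from -0.49 to 0.48, at an adjusted p of 1.00 with edgeR. Per kb, Hspa8 was 10.6, 13.2 and 12.8 times the sum of Hspa1a and Hspa1b in control libraries and 25.9, 17.8 and 7.52 times in delipidated libraries. The single-part inducible genes are understated in these ratios. Against each copy alone, not their sum, the ratio of mean levels of Hspa8 fell with 200 bases added for each part. It was 10.5 in place of 29.2 for Hspa1a and 8.50 in place of 23.7 for Hspa1b. The ratio to the sum of both was not taken in this way, so these values are not comparable with those of the libraries.

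The counts of Hspa8 lay for the most part in coding exons. Parts with coding sequence held between 79.0% and 89.5% of its counts in a library, and the 14 parts found only in non-coding transcripts held between 1.61% and 3.14% although they make up 36.8% of its length. The 3 parts that overlap the small nucleolar RNAs Snord14c, Snord14d and Snord14e were left out, and each held at most 33 counts in a library. Of the 150-base windows of the Hspa8 transcript, 56.0% are also found in other genes, most of them in Gm26825, and only unique reads were counted, so the level of Hspa8 is uncertain.

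Hsph1 (ENSMUSG00000029657) encodes HSP110, which exchanges the nucleotide on HSP70 and helps it to dissolve aggregates. The gene lies on the reverse strand of chromosome 5 from 149614287 to 149636376 and has 41 parts. Its level was 576, 685 and 607 CPM in control libraries and 808, 748 and 436 CPM in delipidated libraries. Delipidated replicates 1 and 2 were above all controls and delipidated replicate 3 was below them, so the groups overlapped. The SD was 56.0 CPM in control and 199.5 CPM in delipidated embryos (n = 3 each), around means of 622 and 664 CPM. Delipidated against control, the log2 fold change was 0.09 (SE 0.22), with a 95% interval from -0.40 to 0.58, at an adjusted p of 1.00 with edgeR. Per kb, Hsph1 reached 0.678, 1.03 and 0.601 of the level of Hspa8 in control and 0.971, 0.722 and 0.673 in delipidated libraries. The order of these genes is uncertain, since the ratio of mean levels of Hspa8 to Hsph1 was 1.31 per kb but 0.933 with 200 bases added for each part, and many windows of Hspa8 are shared with other genes. Parts 40 and 41 at the 5′ end, from 149636339 to 149636351 and from 149636352 to 149636376, had 3.16 and 3.11 CPM in delipidated replicate 1 and at most 0.836 CPM in any other library.

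Hsph1 holds an element of 3 units, which was found in 0.603% of all promoters. It starts 15 bases after the downstream RefSeq transcription start and 36 bases after the start listed farther upstream. The element lies in the untranslated first exon. It is printed from the reverse strand, at chr5:149636279-149636308, with the 3 units and the bases between them in capitals.
Hsph1: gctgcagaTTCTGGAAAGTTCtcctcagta
The 3-unit search used GAANNTTCNNGAA and TTCNNGAANNTTC on both strands. A match is a description of the letters in the window, and binding was not measured.

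Dnajb1 (ENSMUSG00000005483) encodes an HSP40 that delivers substrates to HSP70 and is itself strongly induced by heat. It lies on the forward strand of chromosome 8 from 83608193 to 83612653. Its level was 18.0, 20.2 and 24.3 CPM in control libraries and 26.5, 9.83 and 8.82 CPM in delipidated libraries. Delipidated replicate 1 was above all controls and delipidated replicates 2 and 3 were below all of them. The group means were 20.8 ± 3.22 CPM in control and 15.1 ± 9.94 CPM in delipidated embryos (SD, n = 3 each). The log2 fold change of -0.47 was the farthest from 0 among the members, with a standard error of 0.49 and a 95% interval from -1.55 to 0.61, at an adjusted p of 1.00 with edgeR. Without delipidated replicate 1 it was -1.16 at an unadjusted p of 0.0343, still not called by edgeR. In that fit 713 of 17413 genes and 1 of the 10 members had an unadjusted p under 0.05. Over all alternatives of edgeR and the other tools the smallest adjusted p of Dnajb1 was 0.792. The last part, from 83610589 to 83612653, had 6.07, 4.54 and 2.74 CPM in control and 9.58, 1.66 and 2.12 CPM in delipidated libraries, highest in delipidated replicate 1. The coding part from 83609814 to 83610394 had 5.91, 8.41 and 10.9 CPM in control and 9.38, 4.91 and 3.04 CPM in delipidated libraries, highest in control replicate 3. The upstream part of the transcript Dnajb1-202, from 83608553 to 83608760, had 14 counts in delipidated replicate 1, 1 in control replicate 1 and 0 in the other libraries. No element of 2 units was found in the promoters listed for Dnajb1.

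Hsp90aa1 (ENSMUSG00000021270) and Hsp90ab1 (ENSMUSG00000023944) encode the inducible and the constitutive cytosolic HSP90, which mature kinases and steroid receptors and hold Hsf1 inactive. They were the most abundant members, and the level of each lay close together in all libraries. Hsp90ab1, on the reverse strand of chromosome 17 from 45567775 to 45573271, had 1311, 1750 and 1345 CPM in control and 1737, 1671 and 1297 CPM in delipidated libraries. EdgeR estimated a log2 fold change of 0.09 (SE 0.17), with a 95% interval from -0.28 to 0.47, at an adjusted p of 1.00. Hsp90aa1, on the reverse strand of chromosome 12 from 110690605 to 110702728, had 1048, 1196 and 1308 CPM in control and 1329, 1166 and 1084 CPM in delipidated libraries. Its log2 fold change was 0.01 (SE 0.16), with a 95% interval from -0.33 to 0.35, at an adjusted p of 1.00 with edgeR. For Hsp90aa1 this interval allows a change from 0.796-fold to 1.28-fold, the narrowest of the 10 members, and its coefficient of variation over the 6 libraries was 9.63% against a median of 44.2% over all genes tested. Per kb, the constitutive gene exceeded the inducible gene in 6 of 6 libraries, by 1.64, 1.92 and 1.35 times in control and 1.71, 1.88 and 1.57 times in delipidated libraries.

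The parts of Hsp90aa1 separate its alternative starts. The outermost part of the transcript Hsp90aa1-202, from 110696290 to 110696395, had 7.76, 6.41 and 6.54 CPM in control and 7.85, 12.6 and 8.82 CPM in delipidated libraries, with control replicate 1 and delipidated replicate 1 nearly equal. The first exon of Hsp90aa1-208, which begins farther upstream, from 110702623 to 110702728, is as long and had 3, 0 and 0 counts in control and 0, 0 and 3 in delipidated libraries. At the other end, the last part from 110690605 to 110691027, an untranslated stretch of 423 bases, had 13, 3 and 0 counts in control and 10, 32 and 0 in delipidated libraries, and the next part had at least 355 counts in each library. Parts with coding sequence held at least 96.4% of the counts of Hsp90aa1 and at least 95.6% of those of Hsp90ab1 in each library. Of the 150-base windows of Hsp90aa1, 36.2% are also found in other genes, most of them in Gm12346, whereas none of those of Hsp90ab1 are, so the ratio of the genes is uncertain.

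Hspd1 (ENSMUSG00000025980) and Hspe1 (ENSMUSG00000073676) encode HSP60 and HSP10, the barrel and the lid of the mitochondrial chaperonin. They lie head to head on chromosome 1, Hspd1 on the reverse strand from 55077835 to 55088243 and Hspe1 on the forward strand from 55088132 to 55091307. Hspd1 had 113, 91.8 and 105 CPM in control and 86.8, 115 and 116 CPM in delipidated libraries. Delipidated against control, the log2 fold change was 0.03 (SE 0.24), with a 95% interval from -0.48 to 0.55, at an adjusted p of 1.00 with edgeR. Hspe1 had 39.7, 23.6 and 30.6 CPM in control and 18.3, 17.3 and 48.6 CPM in delipidated libraries. For Hspe1 the delipidated libraries held the lowest values and the highest, and delipidated replicate 3 alone exceeded the controls. EdgeR estimated a log2 fold change of -0.16 (SE 0.45), with a 95% interval from -1.15 to 0.83, at an adjusted p of 1.00, and without delipidated replicate 3 it was -0.82. Per kb, Hspd1 exceeded Hspe1 by 1.59, 2.17 and 1.93 times in control and 2.64, 3.71 and 1.34 times in delipidated libraries, so the lowest and the highest ratio were both in delipidated libraries. This ratio is uncertain too, since 18.6% of the 150-base windows of Hspd1 are also found in Hspd1-ps3 and 14.1% of those of Hspe1 in AC117239.2. The length of Hspe1 also includes a part of 700 bases found only in a non-coding transcript, and Hspd1 has no such part. That part makes up 47.5% of the length and held at most 1.7% of the counts in a library, so this ratio understates Hspe1.

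The untranslated parts at the 5′ ends of both genes varied with these libraries. The Hspd1 part from 55088025 to 55088144 had 2.28, 1.63 and 3.65 CPM in control and 0, 0.737 and 3.95 CPM in delipidated libraries. The first part of Hspe1, from 55088132 to 55088313, had 3.88, 1.15 and 0.760 CPM in control and 0.296, 0 and 3.46 CPM in delipidated libraries. Both parts were lowest in delipidated replicates 1 and 2, on few counts, and the Hspe1 part was also low in control replicates 2 and 3. The outermost part of Hspd1, from 55088145 to 55088243, did not follow this order, with 2.53, 0.968 and 0 CPM in control and 0.296, 0 and 1.62 CPM in delipidated libraries. These parts overlap on opposite strands and their reads may have been mixed where they do. The coding part of Hspe1 from 55089051 to 55089215 held more counts than its other parts, with 16.7, 10.9 and 14.1 CPM in control and 10.1, 8.48 and 23.0 CPM in delipidated libraries.

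**Figure D2:**
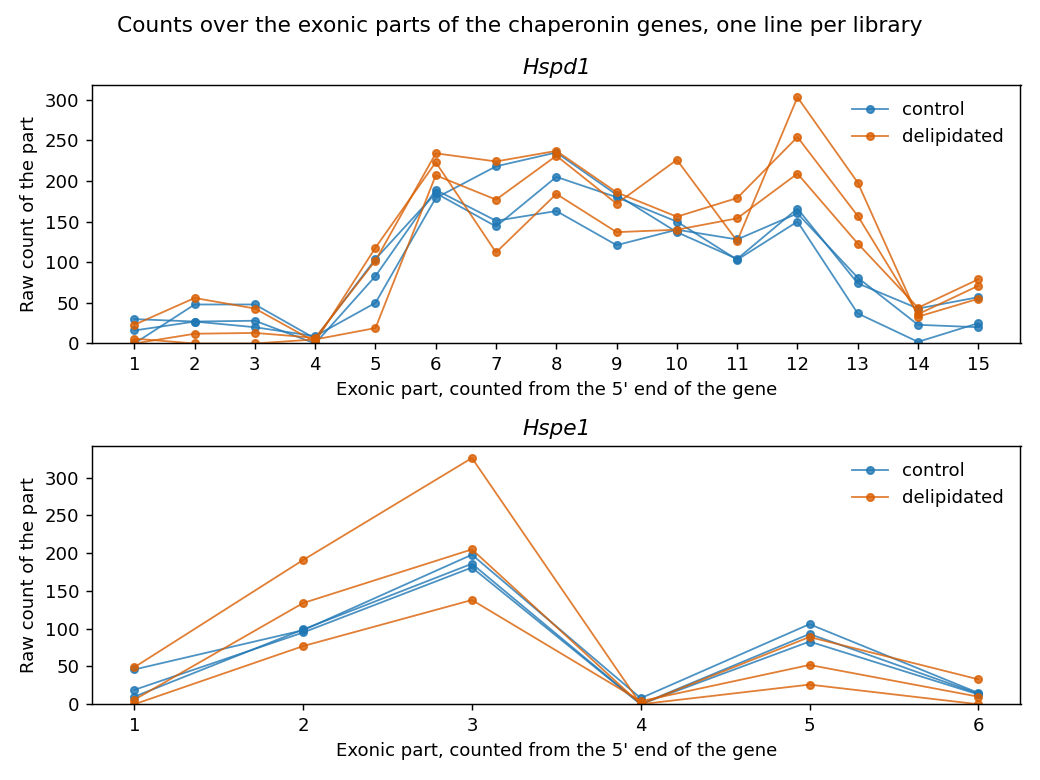
Raw counts, not scaled for depth, of each exonic part of Hspd1 (15 parts) and Hspe1 (6 parts) from the 5′ end, with a line for each of the 3 control and 3 delipidated libraries. The parts at the 5′ end of Hspd1 hold few counts, at most 56, and the part of Hspe1 from 55089051 to 55089215 reaches 326 counts in delipidated replicate 3.

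The longest element found among the members lies near the starts of this gene pair. It has 4 units, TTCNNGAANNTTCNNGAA in the order found (the other order searched was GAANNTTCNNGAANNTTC), and such an element was found in 8 of 32851 promoters (0.0244%). These belong to Arpc2, Chordc1, Fam149a, Gm38873, Gm41230, Kctd18, Hspd1 and Hspe1, and the last 2 share the same bases. The element starts at -89 from the RefSeq start of Hspe1, was found in 1 of the promoters listed for Hspd1 and not in the other, and lies in the untranslated first exon of an Hspd1 transcript, at chr1:55088053-55088082, printed from the forward strand with the 4 units and the bases between them in capitals.
Hspe1: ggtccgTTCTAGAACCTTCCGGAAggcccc
Of the members with a listed promoter, 5 of 6 held an element of 2 units, 3 of 6 an element of 3 units and 2 of 6 an element of 4 units. In each of these counts Hspd1 and Hspe1 both enter for the same bases. A gene was counted for a match in any of its promoters, 9 for the 6 genes. The shares over all promoters, 15.1%, 0.603% and 0.0244% for 2, 3 and 4 units, are per promoter.

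The other genes of the chaperone network gave no call in any list. Of 130 further chaperone and HSF genes, 112 were tested, and edgeR called 0, with 4 at an unadjusted p under 0.05. DESeq2 without a filter called 0 of 127 and had 6 at an unadjusted p under 0.05, and limma-voom called 0 of 112 and had 5. The log2 fold change was above 0 for 68 and below 0 for 44 of them, with a median of 0.07 against -0.00073 over all genes tested. The CPM of both groups did not overlap for 10 of the 112, beside 8.86% of all genes tested.

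Among HSF family and HSF-binding genes, 6 of 8 were tested, 6 had a log2 fold change above 0 and the median was 0.19. Hsf5, a germ cell member of the family, had 13.8, 10.3 and 3.57 CPM in control and 15.3, 15.4 and 20.2 CPM in delipidated libraries, with a log2 fold change of 0.87 ± 0.54 (SE). Hsbp1, a small protein that binds HSF1 trimers, and Hsf2bp, a meiotic partner of HSF2, had the highest levels per kb, at 19.0 and 13.3 CPM per kb, and log2 fold changes of 0.10 and 0.28. Per kb, Hsf1, which is a member and not in this list, thus exceeded Hsbp1 and Hsf2bp.

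Among the other HSP70 and HSP110 genes, 10 of 11 were tested, with 5 log2 fold changes on each side of 0 and a median of -0.0029. The organelle forms were the most abundant per kb, with 152 CPM per kb for the mitochondrial Hspa9 and 83.7 for Hspa5 of the endoplasmic reticulum, at log2 fold changes of 0.06 and 0.00. Hspa12a, a distant relative of HSP70, had 18.2, 17.1 and 16.04 CPM in control and 7.90, 4.36 and 6.78 CPM in delipidated libraries, a log2 fold change of -1.43 ± 0.48 (SE) at an adjusted p of 1.00 with edgeR. Hyou1, the HSP110 relative in the endoplasmic reticulum, had a log2 fold change of -0.54 ± 0.26 (SE).

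Of the HSP90 genes and co-chaperones, 21 of 21 were tested, with 16 log2 fold changes above 0 and 5 below and a median of 0.19. The p23 gene Ptges3 and the HSP90 activator Ahsa1 were the most abundant per kb, at 193 and 159 CPM per kb, with log2 fold changes of 0.15 and 0.24. Trap1, the mitochondrial HSP90, had 14.4, 16.3 and 24.2 CPM in control and 61.9, 28.6 and 14.4 CPM in delipidated libraries. Chordc1, named after its values were seen because it was the only gene of these lists outside the members with an element of 4 units, had 21.8, 8.83 and 9.35 CPM in control and 7.90, 25.8 and 16.9 CPM in delipidated libraries.

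Of the nucleotide exchange factors and cofactors of HSP70, 11 of 12 were tested, 6 above and 5 below 0, with a median of 0.05. St13, which stabilizes the ADP form of HSP70, and Bag1 had 125 and 86.2 CPM per kb, and the log2 fold changes were 0.05 for St13, -0.35 for Bag1, -0.67 for the ubiquitin ligase Stub1 and 1.03 ± 0.72 (SE) for Grpel2. Of 45 DNAJ genes 38 were tested, 20 above and 18 below 0, with a median of 0.04. Dnaja2 and Dnajc8 were the most abundant of them at 229.5 and 197 CPM per kb, far above Dnajb1 at 5.60. Dnaja1, a cytosolic HSP40 and a target of HSF1, had 169.7, 299 and 287 CPM in control and 147.5, 211 and 162 CPM in delipidated libraries, a log2 fold change of -0.54 ± 0.26 (SE), and Dnajc16 had -1.90 ± 0.98 (SE).

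Small heat shock proteins, which bind unfolded proteins without ATP, had few counts. Only 2 of 9 passed the filter, Hspb1 with 9.53 CPM per kb and a log2 fold change of -0.64 ± 0.56 (SE), and Hspb6 with -2.58 ± 1.22 (SE), whose level rested on 222 counts in control replicate 3 against at most 32 in any other library. Hspb3 had no counts in any library, and the 6 others had at most 18 counts in a library. The cytosolic chaperonin and prefoldin list had 16 of 16 tested, 9 above and 7 below 0, with a median of 0.04. Its smallest p-values belonged to prefoldin subunits on opposite sides of 0, Pfdn5 with 71.4, 81.5 and 82.3 CPM in control and 131, 153 and 100.7 CPM in delipidated libraries (log2 fold change 0.71 ± 0.24, SE) and Pfdn6 with 41.6, 62.1 and 44.4 CPM in control and 32.0, 22.3 and 25.0 CPM in delipidated libraries (log2 fold change -0.90 ± 0.33, SE), both at an adjusted p of 1.00 with edgeR. Pfdn5 was also the most abundant of this list per kb at 84.2 CPM per kb, followed by the chaperonin subunit Tcp1 at 70.0. Of 8 mitochondrial proteostasis genes 8 were tested, 6 above and 2 below 0, with a median of 0.23. The inner membrane protease Yme1l1 had a log2 fold change of -0.58 ± 0.25 (SE), the disaggregase Clpb 0.97 ± 0.57 (SE), and Clpx and Lonp1 of the matrix, the most abundant, 0.13 and 0.33.

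Of 24 genes listed as targets of HSF1, which include 9 of the members, 23 were tested, and 12 had a log2 fold change above 0 and 11 below, with a median of 0.01. EdgeR called 0 of them, and none had an unadjusted p under 0.05. Serpinh1, the collagen chaperone HSP47, had 3.54, 0.181 and 6.54 CPM in control and 0, 1.47 and 0 CPM in delipidated libraries. A promoter was listed for 19 of these 24 genes, 11 with an element of 2 units and 4 with an element of 3 units, Chordc1, Hspd1, Hspe1 and Hsph1. Among the other chaperone lists only Chordc1 and Dnajb6 held an element of 3 units.

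Marker genes of the labelled stage were also counted. The series holds no other stage for comparison, so their levels do not test the label. Of 27 listed 2-cell activation genes 24 were found and tested, and their summed level was 1129, 722 and 1054 CPM in control and 978, 985 and 1153 CPM in delipidated libraries. By CPM the most abundant were Dppa2 and Dppa4, with log2 fold changes of 0.18 and 0.03, and per kb Dppa4 (85.8) was above Dppa2 (82.6). Of 25 maternal oocyte transcripts 24 were tested. All 25 summed to 6175, 3941 and 5618 CPM in control and 4644, 4871 and 6944 CPM in delipidated libraries. By CPM they were led by Btg4 and then Dppa3, but per kb Dppa3 (1165) was above Btg4 (582). The median log2 fold change was 0.05 for the activation genes and 0.16 for the maternal transcripts, and edgeR called 0 genes of either list.

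Markers of cells that could have come along with the embryos were counted at uneven levels. Per the study's methods, hyaluronidase was used to take the cumulus cells off the zygotes, which were then washed. Of 15 cumulus and granulosa genes 3 were tested, and the sum over all 15, of 189, 235 and 276.5 CPM in control and 246.5, 209 and 155 CPM in delipidated libraries was made up mostly of Nr5a2, which embryos also express. Ptx3 and Foxl2 had no counts in any library, and Cyp11a1 had 653 counts in control replicate 3 and at most 4 in any other. Leukocyte genes summed to 17.2, 15.1 and 12.7 CPM in control and 5.73, 5.10 and 13.6 CPM in delipidated libraries, with 6 of 10 tested. By CPM Csf1r and Itgam were the most abundant, but per kb Csf1r (0.543) was below Itgam (1.33) and Cd68 (1.22). Stromal genes summed to 34.9, 21.5 and 17.9 CPM in control and 16.9, 32.2 and 27.7 CPM in delipidated libraries, led by Fbln1 and Postn, with 5 of 10 tested. Col1a1 had 11, 26 and 42 counts in control and 0 in each delipidated library, where genes with any count were also fewer than in the controls. Oviduct epithelium genes summed to 217, 390 and 264 CPM in control and 245, 293.5 and 188 CPM in delipidated libraries, nearly all from Epcam and Cdh1, which embryos also express, with 6 of 10 tested and Wfdc2 at 0. Cdh1 had 125, 140 and 133 CPM in control and 70.3, 88.7 and 73.8 CPM in delipidated libraries, a log2 fold change of -0.78 ± 0.23 (SE) at an adjusted p of 1.00 with edgeR. The part of such cells in the levels of the members was not tested.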

How the data were processed

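The authors deposited raw counts per exonic part for each of the 6 libraries. Per the study's methods, libraries of total RNA with depletion of ribosomal RNA were sequenced in paired reads, demultiplexed with bcl2fastq 2.20, trimmed with Trimmomatic 0.36, aligned with STAR 2.5.2b, and unique reads in exons were counted with featureCounts; the methods speak of gene counts. Coordinates fit GRCm38. Of 425461 parts, 33309 carry joined identifiers, of which 27968 overlap the exons (GENCODE M21) of 1 of the joined genes and were assigned to it; leaving out the other 5341 removed 2.49% to 2.57% of a library's counts. A read pair that touches several parts enters a gene's sum more than once, so the sums are not numbers of read pairs. Of 48967 genes, 48762 matched the reference.

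Groups were tested by edgeR 4.0.16 on R 4.3.3 (filterByExpr, min.count 10, min.total.count 15, TMM, quasi-likelihood test, no covariates, Benjamini-Hochberg adjustment over 16020 genes). The common biological coefficient of variation was 0.663. DESeq2 1.42.0 and limma 3.58.1 (voom), other scalings, filters and ways to sum parts, and each library left out in turn were the alternatives. DESeq2 without a filter had no filter on low counts before the test, and its default filters on the results were left on. The fit was also run on simulated counts. Intervals are 95% intervals of the fit. Tables were processed with Python 3.11.15.

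All 10 members are named; from each chaperone list the 2 tested genes with the smallest p and the 2 with the highest CPM per kb; from each marker list the 2 with the highest CPM. Not every gene selected in this way is printed. The members and lists were chosen with earlier results of these data known.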

Additional observations from a re-analysis of the deposited data

How the results depend on the processing

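The number of members called was 0 under each alternative run, and so was the number of other chaperone genes called. Over all genes, DESeq2 without a filter called 9 higher and 40 lower, and edgeR without a filter called 5 higher and 25 lower. Both were run on 30967 genes, but DESeq2 kept its default filters on the results, and the other alternatives called 0. With the replicate number as a replicate block in edgeR 0 genes were called in either direction, 0 of them members, and 406 had an unadjusted p under 0.05. Deviations of same-numbered libraries correlated at -0.0836, 0.0698 and 0.0428, within the range of -0.183 to 0.146 for libraries of different number. No pairing by number was seen, and so few values cannot exclude it. Of 158 values of the members' log2 fold changes under alternatives, 138 had the sign of the reported value and 20 the opposite sign, 17 of these with 1 library left out; the cause was not tested. The other 3 were Hspa8 at 0.01 with limma-voom and 0.17 for the part with most counts, and Hspd1 at -0.21 for the part with most counts. Dropping single libraries, the log2 fold change ran from -0.79 to 0.07 for Hspa1a, -0.51 to 0.04 for Hspa1b, -0.19 to 0.15 for Hspa8, -0.07 to 0.09 for Hsp90aa1, -0.07 to 0.32 for Hsph1, -0.05 to 0.16 for Hspd1, -0.82 to 0.09 for Hspe1, 0.02 to 0.24 for Hsp90ab1, -0.31 to -0.05 for Hsf1 and -1.16 to -0.20 for Dnajb1. Hspa8 had no value without joined identifiers, nor Hspa1a without parts that overlap the opposite strand, an alternative added after the data were seen. Levels in CPM per kb moved beyond 1 SD when only the longest part was used, which for Hspa8, Hsph1 and Hspe1 is a part of non-coding transcripts, to 8.16 for Hspa8, 52.0 for Hsp90aa1, 57.3 for Hsp90ab1, 1.10 for Hsph1, 5.42 for Hspd1, 0.219 for Hspe1, 20.9 for Hsf1 and 2.15 for Dnajb1. With 200 bases added for each part, also chosen after the data were seen, they moved to 38.8 for Hspa8, 122 for Hsp90aa1, 172.6 for Hsp90ab1, 41.6 for Hsph1, 18.6 for Hspd1, 11.1 for Hspe1 and 33.4 for Hsf1.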
